A study of Mus musculus with 6 samples.

Results

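A set of 10 genes of the Wnt pathway was followed in mammary gland RNA from mice lacking Trp53. They were the ligands Wnt5a, Wnt5b, Wnt7b and Wnt10a, the R-spondin Rspo1, the R-spondin receptors Lgr4 and Lgr5, and the feedback and target genes Axin2, Lef1 and Procr. The genes were taken as a list of names, made with earlier results of these data known, and the array carried 11 probes with a RefSeq accession of these 10 genes (2 for Axin2, 1 for each of the others). Of the 10 genes, 9 passed the detection filter (the flag for signal well above background on 3 or more of the 6 arrays) and entered the test over 23458 genes and unnamed transcripts. Lgr5 did not and is given by its values and detection flags. Both diets were fed to female mice with the Trp-53 knockout (Trp53-/-), so the deletion is shared by every sample, and no mice with intact Trp53 were analysed here. Mice were assigned to a high-fat diet (HFD) or a control diet (CD) at random and ate it from 3 to 8 weeks of age, a span of 5 weeks. There were 3 biological replicates per diet, with 1 single-colour Agilent array each, and whether animals were pooled is not stated. The composition of the diets is not given in the labels. The title of the series points to the gland's epithelium and to exposure around puberty. The labels name both whole glands and mammary epithelial cells as the material, and which of them was hybridised is not known.

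Wnt proteins are secreted, lipid-modified ligands that bind Frizzled receptors with either LRP co-receptors or receptor tyrosine kinases of the ROR and RYK families. In the canonical branch the signal stabilises beta-catenin, which joins transcription factors of the TCF/LEF family on target genes. R-spondins bind LGR receptors and keep the ligases ZNRF3 and RNF43 from removing Frizzled proteins, and so strengthen the response. In the mammary gland, Wnt and R-spondin signals are known for ductal branching at puberty and for the upkeep of basal stem cells.

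Levels are log2 signal relative to the 75th percentile of the array, so 0 is that percentile. They are compared between samples for 1 probe and not between probes. Differences are high-fat minus control in log2 units, each with its standard error (SE) from limma. Of the array's probes, between 27202 and 29409 were well above background on each array, and 0 spots were saturated. The number of arrays limits the precision, and an exact permutation test of 3 against 3 cannot go below p = 0.1. Epithelial markers were measured on all arrays: all 13 basal and myoepithelial and all 14 luminal markers passed the filter, and of these only Pgr was missed by its detection flag on any array (1 control array). Of the 8 white adipocyte markers, 7 lay below the 75th percentile, with group means from -6.99 (Adipoq on control arrays) to -3.23 (Cfd on high-fat arrays), and Fabp4 lay above it, at 1.43 on high-fat and 1.31 on control arrays. Adipoq was detected on 2 of the 3 control arrays. High-fat replicate 3 stood apart from the other high-fat arrays. Its mean over the luminal markers was 0.62, within the control range of 0.38 to 0.98, and its mean over the fibroblast markers was 4.44, within the control range of 4.19 to 4.90. In bulk RNA, fewer cells of a type and less RNA per cell cannot be told apart.

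The ligands and Rspo1 had higher mean levels after the high-fat diet, and the targets did not follow as a group. Of the 9 tested members 7 had positive and 2 negative differences, with a median of 0.66, while 49.0% of all genes had positive differences and their median was -0.01. None of the 9 passed an adjusted p of 0.05 in limma, where 0.0171% of all genes passed, all of them lower. At an unadjusted p under 0.05, 3 of the 9 (Wnt5a, Wnt10a and Rspo1) had higher values and 0 had lower ones, where 5.88% of all genes were called higher and 7.46% lower. In the same 3 genes all high-fat arrays lay above all control arrays, which held for 8.47% of all genes. In 0 members did all high-fat arrays lie below, which held for 8.75%. Since the list was made with earlier results of these data known, these shares beside those of all genes are a description only.

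**Figure D1:**
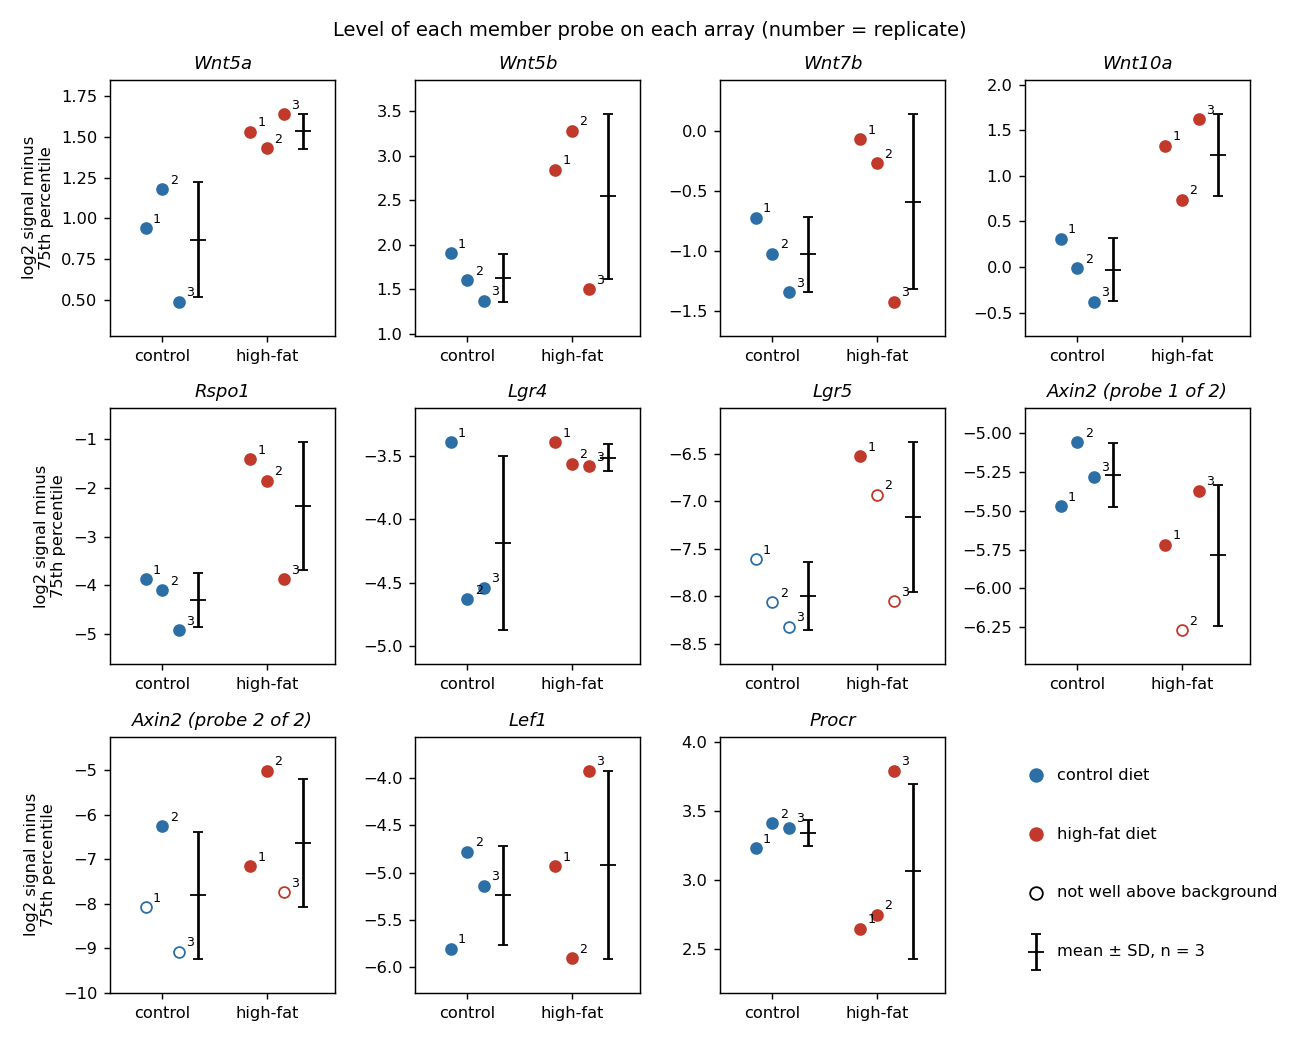
Level of each of the 11 probes on each of the 6 arrays (vertical axes, log2 signal relative to the 75th percentile, scaled separately per panel), with control arrays in blue, high-fat arrays in red, the replicate number beside each point, open circles where the probe was not well above background, and the mean ± SD of 3 replicates beside each group. Wnt5a and Wnt10a separate the diets, Rspo1 does so by 0.002, and in Wnt5b, Wnt7b and Rspo1 high-fat replicate 3 lies apart from the other 2 high-fat arrays.

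Wnt10a, a ligand of the canonical branch that is also active in skin appendages, had levels of 1.33, 0.74 and 1.62 on high-fat replicates 1 to 3 and of 0.31, -0.01 and -0.38 on control replicates 1 to 3. Every high-fat array was above every control array, with a gap of 0.434 between the groups. The means were 1.23 ± 0.45 and -0.02 ± 0.34 (SD, n = 3 each), a difference of 1.26 (SE 0.28, 95% interval 0.58 to 1.93) or 2.39-fold. This was the smallest p of the members, 0.0036, and rank 368 of all genes, but it did not pass after adjustment (adjusted p = 0.231 in limma, and 0.0261 to 1 over the other settings).

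Wnt5a, the main ligand of beta-catenin-independent signalling, was even on the high-fat arrays, at 1.53, 1.43 and 1.64. On the control arrays it was 0.94, 1.18 and 0.49. The diets did not overlap, with a gap of 0.249. The difference was 0.66 (SE 0.20, 95% interval 0.19 to 1.14), 1.58-fold, with an adjusted p of 0.303 in limma (0.034 to 1 over the other settings). Wnt5a and Wnt10a, unlike the other ligands among the members, were at their highest on high-fat replicate 3.

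Wnt5b, the close relative of Wnt5a, had another pattern. High-fat replicates 1 and 2 had levels of 2.84 and 3.28, and replicate 3 one of 1.50, within the control values of 1.90, 1.60 and 1.37. The difference was 0.92 (SE 0.46, 95% interval -0.19 to 2.02; adjusted p = 0.411 in limma) and the SD was 0.93 on high-fat against 0.26 on control arrays. Without high-fat replicate 3 the difference was 1.44 (adjusted p = 0.0807 in limma), and without high-fat replicate 2 it was 0.54.

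Wnt7b, a ligand made by epithelial cells, was, like Wnt5b, lowest among the high-fat arrays on replicate 3. It was -0.07 and -0.27 on high-fat replicates 1 and 2 and -1.42 on high-fat replicate 3, the lowest of all 6 arrays, beside -0.72, -1.02 and -1.34 on control replicates 1 to 3. The difference was 0.44 (SE 0.38, 95% interval -0.47 to 1.35; adjusted p = 0.601 in limma). It was 0.85 when high-fat replicate 3 was left out. It was 0.18 when replicate 1 of that diet was left out instead, and 0.28 for replicate 2 of that diet or control replicate 3.

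Rspo1, a secreted amplifier of Wnt signals known as a product of luminal cells in the gland, had the largest difference of the members. Its levels were -1.41 and -1.85 on high-fat replicates 1 and 2, -3.87 on high-fat replicate 3, and -3.87, -4.10 and -4.92 on control replicates 1 to 3. The diets were separated by 0.002 only, since high-fat replicate 3 and control replicate 1 were alike, and the separation of Rspo1 therefore rests on a gap smaller than any spread between replicates. The means were -2.37 ± 1.31 and -4.30 ± 0.55 (SD, n = 3 each). The difference was 1.92 (SE 0.66, 95% interval 0.32 to 3.53) or 3.79-fold, with an adjusted p of 0.339 in limma (0.0261 to 1 over the other settings). Without high-fat replicate 3 the difference was 2.67 (adjusted p = 0.0617 in limma).

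Lgr4, an R-spondin receptor of broad epithelial expression, was at -3.39, -3.56 and -3.58 on the high-fat arrays. Control replicates 2 and 3 were lower, at -4.63 and -4.54, and control replicate 1, at -3.39, was as high as the high-fat arrays. The difference was 0.67 (SE 0.34, 95% interval -0.14 to 1.49; adjusted p = 0.413 in limma). It was 1.07 without control replicate 1 and 0.45 without control replicate 2.

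Lgr5, the R-spondin receptor known as a marker of stem cells in several epithelia, was close to the limit of detection. Its levels were -6.53, -6.93 and -8.05 on high-fat replicates 1 to 3 and -7.61, -8.06 and -8.32 on control replicates 1 to 3. Only high-fat replicate 1 was well above background. The groups overlapped, and the gene was not tested.

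Among the feedback and target genes no common direction was seen. Axin2, a scaffold of the beta-catenin destruction complex whose own gene is a target of the pathway, was measured by 2 dim probes that differed in sign. On the brighter probe the levels were -5.72, -6.27 and -5.37 on high-fat replicates 1 to 3 and -5.47, -5.06 and -5.28 on control replicates 1 to 3, and high-fat replicate 2 was not well above background. The difference was -0.52 (SE 0.25, 95% interval -1.13 to 0.09; adjusted p = 0.402 in limma), and it was -0.28 without high-fat replicate 2. The other probe gave -7.16, -5.01 and -7.74 on high-fat and -8.08, -6.26 and -9.08 on control arrays, and it was well above background on 2 high-fat arrays and 1 control array. Its difference was 1.17 (SE 0.93, 95% interval -1.08 to 3.42), with an adjusted p of 0.56 in the limma fit over 28687 probes. No direction can be given for Axin2.

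Lef1, a TCF/LEF transcription factor and itself a target gene, varied more within a diet than between the diets. It was -4.93, -5.91 and -3.92 on high-fat replicates 1 to 3 and -5.81, -4.78 and -5.14 on control replicates 1 to 3, a difference of 0.32 (SE 0.53, 95% interval -0.95 to 1.60; adjusted p = 0.782 in limma). High-fat arrays were both the highest and the lowest. Without high-fat replicate 3 its difference was -0.18, and leaving out each of the other arrays gave 0.04 (without control replicate 1) to 0.82 (without high-fat replicate 2).

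Procr, a receptor of the vascular endothelium that is also known as a Wnt target marking a basal stem cell population, was at 2.65 and 2.75 on high-fat replicates 1 and 2 and at 3.79 on high-fat replicate 3. The control arrays lay between them, at 3.23, 3.41 and 3.38. The difference was -0.27 (SE 0.31, 95% interval -1.03 to 0.48; adjusted p = 0.690 in limma) and -0.64 without high-fat replicate 3 (adjusted p = 0.115 in limma). Without high-fat replicate 1 it was -0.06, and without high-fat replicate 2 it was -0.12. The endothelial marker list did not follow Procr: its mean was -2.71, -0.88 and -2.16 on high-fat replicates 1 to 3 and -3.09, -1.91 and -1.93 on control replicates 1 to 3.

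Because TCF/LEF factors carry the canonical signal to DNA, the 250 bases upstream of the annotated starts were searched for the core of their motif, CTTTGA or CTTTGT, on both strands. RefSeq promoter sequences of GRCm38.p6 were matched by symbol for 6 members (Wnt5b, Rspo1, Lgr4, Axin2, Lef1 and Procr), with 11 starts in all. The motif was found at 2 of the 11 starts, 1 of Wnt5b and 1 of Lef1, and at 27.6% of all 32851 starts of the table. The most downstream Lef1 start of 4 held 3 matches, beginning at positions -180, -146 and -120 relative to the start, and 0.78% of all starts held 3 or more. The Axin2 window held none, which says only that these letters are not in it. Of the feedback and target genes, Axin2 and Lef1 are shown, and Procr, whose window held no motif, is not. For Lef1 the start with 3 matches was picked, and its other starts held none. The Rspo1 sequence is shown because its gene had the largest difference of the members. Capitals mark the motif on either strand, and each is written 5′ to 3′ on the plus strand, which is the strand of all 3 genes.
Axin2, chr11:108920099-108920348, + strand: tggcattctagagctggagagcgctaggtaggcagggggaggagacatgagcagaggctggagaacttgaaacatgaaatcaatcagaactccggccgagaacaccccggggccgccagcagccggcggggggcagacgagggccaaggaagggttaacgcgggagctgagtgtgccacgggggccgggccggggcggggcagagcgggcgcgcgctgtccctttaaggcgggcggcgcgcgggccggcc
Lef1, chr3:131156044-131156293, + strand: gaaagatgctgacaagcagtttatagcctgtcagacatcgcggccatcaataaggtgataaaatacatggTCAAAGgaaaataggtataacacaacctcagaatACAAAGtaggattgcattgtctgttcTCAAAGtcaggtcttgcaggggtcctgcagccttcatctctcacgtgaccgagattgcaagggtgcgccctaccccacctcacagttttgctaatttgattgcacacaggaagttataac
Rspo1, chr4:124986180-124986429, + strand: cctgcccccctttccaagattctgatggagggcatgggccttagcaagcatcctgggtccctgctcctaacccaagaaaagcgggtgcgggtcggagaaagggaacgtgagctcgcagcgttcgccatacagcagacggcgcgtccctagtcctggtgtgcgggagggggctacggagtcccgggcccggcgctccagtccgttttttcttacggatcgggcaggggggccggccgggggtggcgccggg

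The size of several differences turned on high-fat replicate 3. Without it, 7 of the 9 tested members were under an unadjusted p of 0.05, 5 higher (all 4 ligands and Rspo1) and 2 lower (Axin2 and Procr), where 9.50% of all genes were called higher and 10.9% lower. Axin2 is counted by its brighter probe, which was not well above background on high-fat replicate 2. Its other probe had a positive difference over all arrays (1.17), so the count gives Axin2 no direction. After adjustment 0 of 9 passed (0.158% of all genes passed). Leaving out any 1 of the other 5 arrays left 2 to 4 members under an unadjusted p of 0.05, all higher. It was 4 without control replicate 1, where 5426 of all 23458 genes were under it. Without control replicate 2 it was 3, beside 2048 genes. For each of the remaining arrays it was 2, beside 1413 to 2073 genes. The members split by how this array stood. In Wnt5b, Wnt7b and Rspo1 it was with or near the controls, in Wnt5a and Wnt10a it was the highest array, and in Lef1 and Procr it was the highest array while high-fat replicates 1 or 2 were the lowest.

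Of the 3 slides used, 1 carried both diets, with high-fat replicates 2 and 3 and control replicate 1. Within it the differences were 0.60 for Wnt5a, 0.87 for Wnt10a, 0.49 for Wnt5b and 1.01 for Rspo1, and high-fat replicates 2 and 3 differed from the control array by 2.02 and 0.00 for Rspo1 and by 1.38 and -0.40 for Wnt5b. They were -0.12 for Wnt7b, -0.18 for Lgr4, -0.35 for Axin2, 0.89 for Lef1 and 0.05 for Procr, where the same 2 high-fat arrays gave 0.45 and -0.70 for Wnt7b, -0.80 and 0.10 for Axin2, -0.11 and 1.89 for Lef1 and -0.47 and 0.57 for Procr. Wnt5a and Wnt10a were higher on both high-fat arrays of the slide than on its control array, by 0.49 and 0.71 for Wnt5a and by 0.43 and 1.31 for Wnt10a. Of the members 0 were under an unadjusted p of 0.05 in limma within the slide, where 4.04% of all genes were. The remaining 2 slides held 1 diet each, so slide and diet cannot be told apart there.

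**Figure D2:**
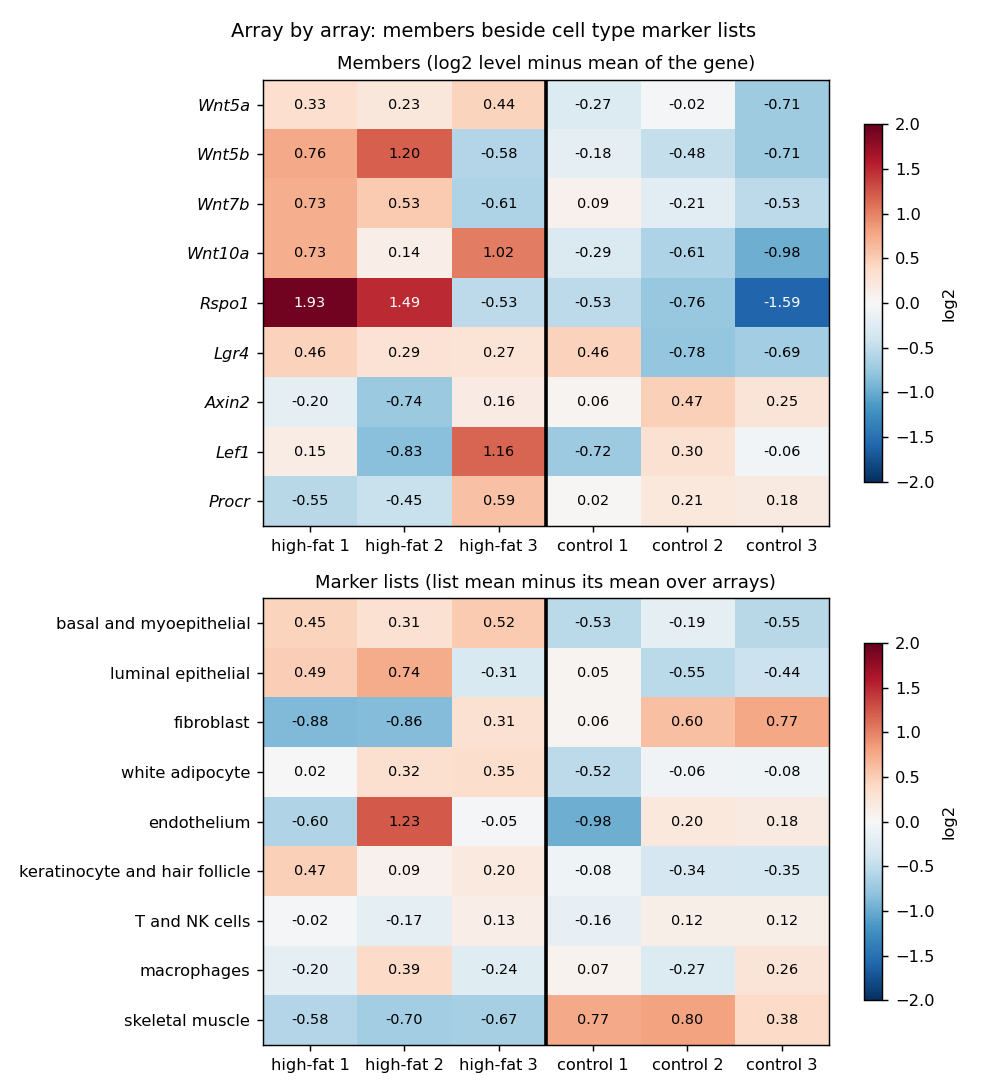
Deviation of each tested member (upper panel, log2 level minus the gene's mean over the 6 arrays) and of the mean over each cell type marker list (lower panel, minus its mean over the arrays), with arrays in columns, high-fat to the left of the line. Wnt5a and Wnt10a are positive on all 3 high-fat arrays, as are the basal and myoepithelial, white adipocyte and keratinocyte and hair follicle lists, and Wnt5b, Wnt7b and Rspo1 are positive on high-fat replicates 1 and 2 and negative on high-fat replicate 3, as is the luminal list.

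Marker lists of cell types are given beside these patterns. In limma 0 markers of any list passed after adjustment. At an unadjusted p under 0.05, 5.88% of all genes were called higher and 7.46% lower. Of the markers, 7 of 13 basal and myoepithelial and 4 of 14 luminal ones were called higher. So were 3 of 7 measured keratinocyte and hair follicle and 2 of 8 white adipocyte markers. Called lower were 3 of 10 fibroblast, 5 of 8 measured skeletal muscle and 1 of 5 measured macrophage markers. No endothelial or T and NK cell marker was called. The mean of the 13 basal and myoepithelial markers ranged from 2.39 to 2.60 on high-fat and from 1.53 to 1.89 on control arrays, with all 13 differences positive and no overlap of the diets. The means of the white adipocyte and of the keratinocyte and hair follicle markers were also higher on every high-fat array, as were Wnt5a and Wnt10a. The mean of the 14 luminal markers was 1.42 and 1.67 on high-fat replicates 1 and 2, 0.62 on high-fat replicate 3 and 0.38 to 0.98 on the control arrays, with 13 of 14 differences positive, and Wnt5b, Wnt7b and Rspo1 were likewise lower on high-fat replicate 3 than on the other 2 high-fat arrays. The mean of the 10 fibroblast markers was 3.25 and 3.27 on high-fat replicates 1 and 2, 4.44 on high-fat replicate 3 and 4.19 to 4.90 on the control arrays, with 9 of 10 differences negative, and Procr was likewise lowest on high-fat replicates 1 and 2. Of 12 keratinocyte and hair follicle markers 7 were measured, and their mean was -2.39 to -2.01 on high-fat and -2.83 to -2.56 on control arrays, with 4 differences positive and 3 negative, from -0.63 for Lor to 2.21 for Krtdap, and a median of 0.07. The 8 white adipocyte markers averaged -4.68 to -4.35 on high-fat and -5.22 to -4.76 on control arrays, with 6 differences positive and 2 negative. These differences ran from -0.29 to 1.78 (Cfd), with a median of 0.18. The 8 of 10 skeletal muscle markers measured averaged -3.47 to -3.36 on high-fat and -2.40 to -1.97 on control arrays, with 2 positive and 6 negative. The measured T and NK cell (4 of 8) and macrophage (5 of 7) markers overlapped between the diets. The part of these cell types in the members' differences was not tested.

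The genes most like each member over the 6 arrays were sought by the root mean square difference between centred log2 levels. For Wnt10a, whose levels spanned 2.00, the nearest was Col17a1, the hemidesmosome collagen of basal epithelial cells (0.132). For Wnt5b, spanning 1.91, the nearest were Sulf2, an extracellular sulfatase (0.123), and Krt19, a luminal keratin (0.143). For Rspo1, spanning 3.52, they were Foxj1, a transcription factor of ciliated cells (0.230), and Wfdc18, a secreted protein (0.305). Procr, spanning 1.15, was nearest to Ggcx (0.074) and Irf5 (0.086), and then to Plat, the tissue plasminogen activator (0.088). For Wnt5a the nearest was Upk3bl (0.028), for Wnt7b Trmo and Tbc1d30 (0.098 each) and for Lgr4 Naa15 (0.07). For Axin2 it was Cabyr (0.026) and for Lef1 Piezo2 (0.208). Among the members, the nearest pairs were Axin2 with Procr (0.28), Wnt5b with Wnt7b (0.32) and Wnt5a with Wnt10a (0.39), and the farthest was Rspo1 with Procr (1.61). The measure depends on the span of each gene, which was 1.21 for Axin2, 1.15 for Procr and 3.52 for Rspo1. Axin2 here is its dim brighter probe. With 6 arrays and 23458 genes such likeness is a description only.

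The rest of the pathway showed no shift in one direction. Of 84 further genes of the pathway, 75 were tested, 35 with positive and 40 with negative differences and a median of -0.06. In limma 0 passed after adjustment. At an unadjusted p under 0.05, 9 were higher and 10 lower, or 19 of 75, where 13.3% of all genes were called in either direction. The 9 genes not tested were Wnt2, Wnt2b, Wnt3, Wnt3a, Rspo2, Dkk4, Kremen2, Sost and Bambi. The 12 genes with the smallest p had adjusted p-values from 0.139 for Fzd10 to 0.333 for Frzb.

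R-spondins differed in direction. Rspo3, an R-spondin of stromal cells, had levels of -5.42, -5.73 and -3.78 on high-fat and -2.54, -2.85 and -2.23 on control arrays. Every high-fat array was below every control array, and the difference was -2.44 (SE 0.51, 95% interval -3.68 to -1.19; adjusted p = 0.223 in limma), opposite in sign to the 1.92 of Rspo1. Without high-fat replicate 3 it was -3.04 and passed, with adjusted p = 0.0422 in limma. Rspo4 differed by -1.30 (SE 0.23), also with no overlap, from -3.53 ± 0.12 on control to -4.83 ± 0.42 on high-fat arrays (SD, n = 3 each). Within the shared slide the differences were -2.21 for Rspo3 and -0.96 for Rspo4. After normexp background correction and scaling to the 75th percentile they were -0.86 for Rspo3 and -0.05 for Rspo4.

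Frizzled receptors also went both ways. Fzd10 had levels of -1.89, -2.43 and -2.38 on high-fat and -3.43, -3.24 and -3.54 on control arrays, a difference of 1.17 (SE 0.19), and Fzd5 differed by 1.09 (SE 0.31). Fzd1 was lower on every high-fat array, at 1.35, 1.57 and 1.89 against 2.54, 3.22 and 3.14 on the control arrays, a difference of -1.37 (SE 0.24). Ror1, a receptor for Wnt5a, differed by 0.92 (SE 0.27) and by 0.23 after normexp and quantile normalization. For Fzd5 a further probe gave 0.30. Within the shared slide the differences were 1.02 for Fzd10, 0.39 for Fzd5, -0.82 for Fzd1 and 0.99 for Ror1. Over the 16 receptors listed, 8 differences were positive and 8 negative.

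Further ligands had positive differences, 1.34 (SE 0.42) for Wnt4, the progesterone-responsive ligand of the gland, and 0.75 (SE 0.24) for Wnt9a. For Wnt4, high-fat replicate 3 (-3.08) lay close to control replicate 1 (-3.20). Within the shared slide the differences were 0.65 for Wnt4 and 0.91 for Wnt9a. Of the 11 further ligands tested 6 were positive and 5 negative. The most negative was Wnt9b, at -1.75 (SE 0.66), with overlapping diets. Tcf7, a TCF/LEF transcription factor and target gene, differed by 0.91 (SE 0.18), from -2.60 ± 0.26 on control to -1.69 ± 0.20 on high-fat arrays (SD, n = 3 each), and by 0.95 on its other probe. Among the other targets and inhibitors, Ascl2, a transcription factor and Wnt target in intestinal stem cells, differed by -1.09 (SE 0.28; -0.21 after normexp and the 75th percentile), Nkd2, a feedback inhibitor, by -1.18 (SE 0.38), though by 0.02 on its other probe, and Frzb, a secreted Frizzled-related inhibitor, by -1.72 (SE 0.58). Of 12 secreted inhibitors tested 5 were positive and 7 negative, from -1.82 to 1.45. The last was for Sostdc1, an inhibitor of Wnt and BMP signals, named after its value was seen (SE 0.62, 95% interval -0.05 to 2.95). Its levels were -6.26, -3.91 and -6.16 on high-fat and -6.85, -6.96 and -6.87 on control arrays. All high-fat arrays were above the control arrays, but high-fat replicate 2 stood far above the rest. The control levels lay near the lowest level well above background on those arrays (-7.87 to -7.25). Of 8 tested feedback and target genes outside the members 2 were positive and 6 negative, with a median of -0.16. The beta-catenin gene Ctnnb1 itself differed by -0.04 (SE 0.11, 95% interval -0.31 to 0.22), a value chosen after it was seen.

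**Figure D3:**
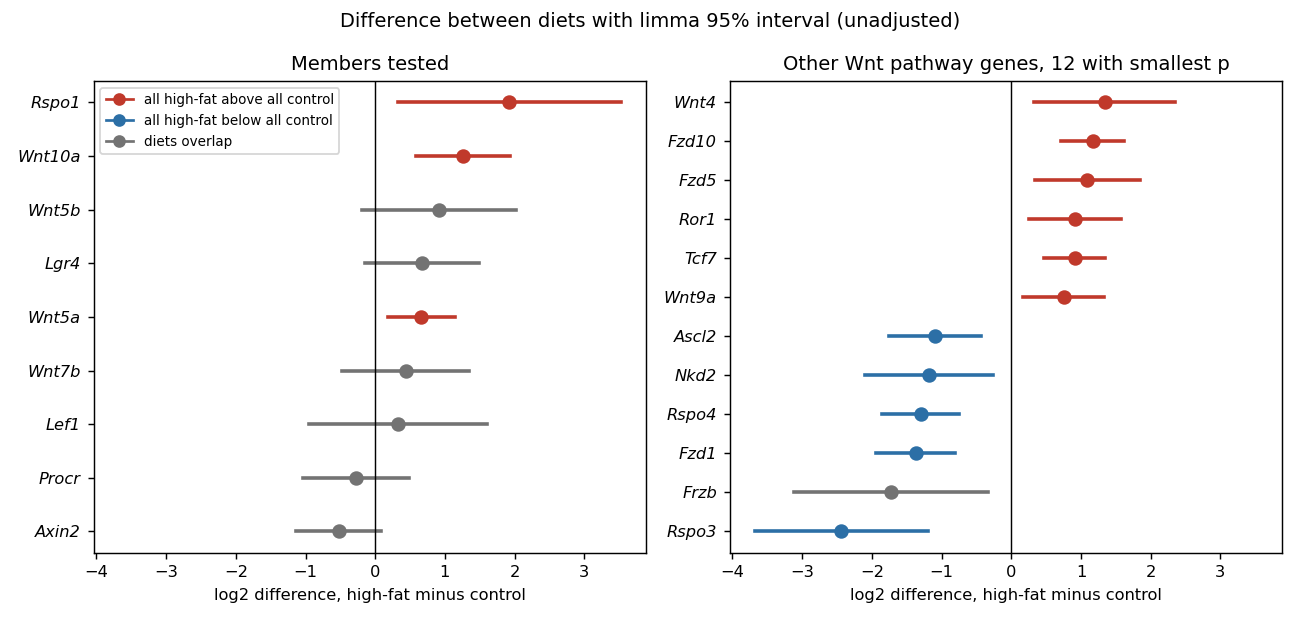
Difference between the diets (horizontal axis, log2, high-fat minus control) with limma's unadjusted 95% interval, for the 9 tested members (left) and the 12 further Wnt pathway genes with the smallest p (right), red where all high-fat arrays lay above all control arrays, blue where all lay below and grey where the diets overlapped. Rspo1 (by 0.002 only), Wnt10a and Wnt5a are the red members, and on the right 6 genes are red, 5 are blue and Frzb is grey. The genes on the right were picked by p, which favours diets that do not overlap. Of all 75 further genes, 9 lay wholly above and 7 wholly below, beside 8.47% and 8.75% of all genes.

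**Figure D4:**
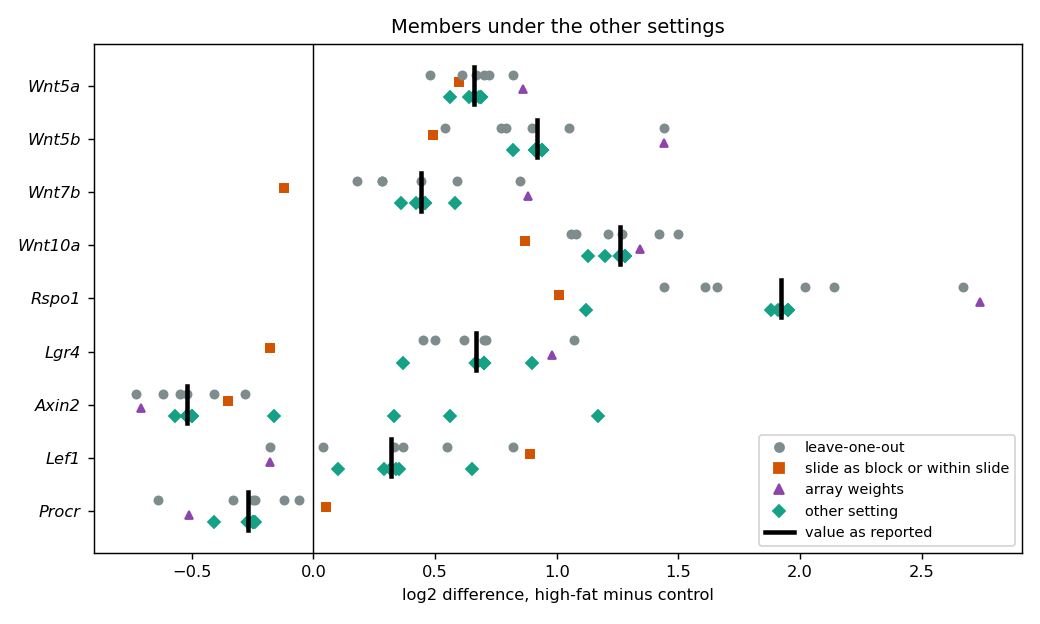
Difference between the diets (horizontal axis, log2, high-fat minus control) for each tested member as reported (black bar) and under the other settings (symbols by kind). Wnt5a, Wnt5b, Wnt10a and Rspo1 stay above 0 in all 21 other settings, and Axin2, Lef1, Procr, Wnt7b and Lgr4 cross 0 in 2 or 3 of them. Several settings (filter, probe choice, spread, replicate block) cannot change the estimate of a gene with a single probe detected on every array.

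One other setting made calls among the members. With array weights, which limma estimates from how far each array lies from its own group, 6 of the 9 members passed an adjusted p of 0.05: Wnt5a, Wnt5b, Wnt10a, Rspo1 and Lgr4 as higher and Axin2 as lower. Axin2 again stood for its brighter probe, which differed in sign from its other probe. In that fit 5411 genes, or 23.1% of all genes, passed, and control replicate 3 had a weight of 4.69 beside 0.42 for high-fat replicate 3 and 0.34 for control replicate 1.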

How the data were processed

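RNA from 6 mammary gland samples was measured on 1 single-colour Agilent array each. Per the file headers, the arrays were read with Agilent Feature Extraction 11.0.1.1 (design annotated on mm9), and the authors deposited linear intensity values per spot, a processed signal and the median spot and background signals. How the processed signal was corrected for background is not given in the sources used here. A further deposited table lists 30608 probes and holds the same intensity divided by a constant close to each array's 75th percentile (column medians 0.134 to 0.140), with scale taken from that match; it is neither logged nor centred.

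Here, control spots and outlier spots were left out, spots of a probe were averaged as log2, and 111 of 39429 probes were dropped because an array lacked a usable spot. Each array was set to its 75th percentile (1326.2 to 1973.3 intensity units). Probes well above background on at least 3 arrays were kept (28687), and the probe with the highest mean stood for its gene (23458). Probes were named through RefSeq accessions (27427 matched 1 symbol). The test was limma 3.58.1 (R 4.3.3), two-sided, Benjamini-Hochberg over all genes. P-values measure the spread between these samples. Exact copies among the arrays were not found (highest correlation over genes 0.994).

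The members and lists were chosen with earlier results of these data known. Named genes were all members, the 12 further pathway genes with the smallest p, and a selection of the nearest 3 genes of each member. Ctnnb1, Sostdc1, Wnt9b and the single markers named (Pgr, Adipoq, Cfd, Fabp4, Lor and Krtdap) fall outside that rule and were chosen after their values were seen. Other settings covered scaling, background, filter, probe, spread, block, the deposited table and each array left out. The normexp setting (offset 50) used median signals, since mean signals are not in the columns used. On simulated data for this comparison over 23458 genes, the share called was 39.1% at a log2 change of 1, 73.7% at 2 and 86.4% at 3, and 5.01% of calls were false. The simulated noise was independent between arrays, with each gene's measured spread within the diets. It held no slide effect and no array that stood apart, so these shares need not hold for the real arrays. Replicate numbers were not taken as pairs, since the labels state no pairing. Deviations from the group means correlated by 0.33, -0.14 and 0.25 for numbers 1 to 3. Between different numbers they correlated by -0.38 to 0.23, and these values do not decide whether numbers are pairs.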

Additional observations from a re-analysis of the deposited data

How the results depend on the processing

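Over 21 other settings, Wnt5a (0.48 to 0.86), Wnt5b (0.49 to 1.44), Wnt10a (0.87 to 1.50) and Rspo1 (1.01 to 2.74) kept positive differences. These genes have a single probe each, detected on every array. The settings of filter, probe choice, spread and replicate block therefore return their reported estimates by construction. The deposited table holds the same signal rescaled. So the number of settings is not a count of independent checks. The median over the tested members was 0.66 as reported, 0.37 with normexp and quantile normalization, 0.88 with array weights and between these in the other settings, and that over the further pathway genes ranged from -0.08 to 0.05. The 12 further genes named kept their direction, except Nkd2 with its second probe (0.02). Directions turned for Axin2 with normexp and the 75th percentile (0.56, where the median of all genes was 0.27), with the mean of its probes (0.33) and with its second probe (1.17), for Lef1 with array weights (-0.18) and without high-fat replicate 3 (-0.18; leaving out 1 array gave -0.18 to 0.82), and for Wnt7b (-0.12), Lgr4 (-0.18) and Procr (0.05) with slide as a block and within the shared slide, which give the same estimates. Of the members, 0 passed in any setting but array weights, where 6 did. The count of all genes past the test, 4 as reported, was 2 with median centring, 0 with quantile normalization, with the 75th percentile over probes detected on all arrays, with normexp and the 75th percentile, without a filter, and with slide or replicate as a block or within the slide, 7 with normexp and quantile or with the strictest filter, and 5411 with array weights. Leaving out 1 array gave 0 to 37 genes (37 without high-fat replicate 3). At an unadjusted p under 0.05 the settings with 0 called 947 to 5426 genes. With the replicate block 0 of 9 members passed (lowest adjusted p = 0.136), and not every array correlated best with its own number. Axin2 could not be measured under the strictest filter. Signals of Lgr5 and Axin2 lay close to background, which limits both. Lef1 was also dim, 0.92 to 3.46 above each array's lowest level well above background, beside 0.56 to 2.40 for the brighter Axin2 probe. Of the further genes, Ror1 fell to -6.57, Rspo3 to -5.73 and Rspo4 to -5.31, levels as low as those of that probe (-6.27 to -5.06). The causes of the changes between settings were not tested.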
